A study of Caenorhabditis elegans with 4 samples.

Results

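The subunits of the chaperonin CCT are encoded in Caenorhabditis elegans by 8 genes, cct-1 to cct-8, which were taken by name from a table of UMI counts of 14463 genes. All 8 were present in that table, and 7 of them had enough counts to be tested between genotypes. The table holds 4 libraries from body-wall muscle cells of embryos at the 1.5-fold stage, 2 from mir-1(luc108) embryos and 2 from wild-type embryos. The mutant strain, MLC2277, carried lucEx1207(myo-3p::YFP) together with mir-1(luc108), a deletion of the muscle microRNA gene mir-1 made by genome editing. The wild-type strain, MLC2232, carried lucEx1207(myo-3p::YFP) alone, so that the transgene was shared by both groups. This transgene is an extrachromosomal array in which the promoter of the muscle myosin gene myo-3 drives a yellow fluorescent protein. Each library was made from 5000 sorted cells positive for YFP, and the mRNAs were read at their 3′ ends by QuantSeq, a method that starts from the poly(A) tail, with a unique molecular identifier (UMI) on each cDNA.

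CCT, also called TRiC, is a cytosolic machine of stacked rings, each with one copy of every subunit around a central cavity. An unfolded protein is bound inside the cavity and released as ATP is bound and hydrolysed by the subunits. Its best known clients are actin and tubulin, which cannot reach their folded state without it, and it also acts on several proteins of the WD40 type. In muscle, where actin builds the thin filaments, the ring serves a tissue with a large demand for folded actin. In C. elegans the ring is required in the embryo, and its depletion in muscle increases the aggregation of polyglutamine proteins.

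The libraries held 343227 to 453341 UMI counts in mir-1(luc108) and 245336 to 424968 in wild type. Levels are given as CPM, the UMI counts per 1000000 counts of a library, scaled with edgeR's TMM method (factors of 0.977 to 1.04). The microRNA mir-1 itself was not analysed here. All 12 body-wall muscle markers were detected in every library. Their summed level was 17880 and 16112 CPM in the mir-1(luc108) libraries, against 24300 and 22621 CPM in the wild-type libraries. Markers of other cell types were present too, at lower sums than the muscle markers. The 7 neuronal genes summed to 552 to 670 CPM in mir-1(luc108) and 440 to 540 CPM in wild type. Single genes among these markers were abundant, with means over the libraries of 692 CPM for the hypodermal ajm-1 and 186 CPM for the neuronal unc-119. Hypodermal genes summed to 1102 and 1130 CPM in mir-1(luc108) and 1106 and 1178 CPM in wild type, pharyngeal muscle genes to 177 to 189 CPM in mir-1(luc108) and 192 to 287 CPM in wild type, and intestinal genes to 94.7 to 114 CPM in mir-1(luc108) and 68.3 to 120 CPM in wild type. The 4 germ-line genes summed to at most 28.4 CPM, and 3 of them had no count in some library. The paper calls the libraries of each genotype biological duplicates, and the labels do not name their cultures.

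The CCT genes were annotated on WBcel235, the build to which the authors mapped their reads, with coordinates from Ensembl release 115. Chromosome II holds 4 of the 8 genes. cct-1 (WBGene00000377), for the alpha subunit, lies there from 8185443 to 8187601 on the plus strand, and cct-4 (WBGene00000379), for the delta subunit, from 8283667 to 8285711, 96.1 kb away on the same strand. cct-2 (WBGene00000378), for the beta subunit, runs from 8927741 to 8929815, and cct-3 (WBGene00018782), for the gamma subunit, from 2233540 to 2243539. On the minus strand of chromosome III lie cct-5 (WBGene00000380), for the epsilon subunit, from 4499188 to 4508114, and cct-6 (WBGene00000381), for the zeta subunit, from 5853530 to 5855687. cct-7 (WBGene00020391), for the eta subunit, lies on chromosome V from 1872246 to 1875505, and cct-8 (WBGene00021934), for the theta subunit, on chromosome IV from 1087108 to 1093920. The 8 genes thus lie neither in a single cluster nor all on a single chromosome.

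The proteins are of nearly the same size, from 529 residues for CCT-2 to 549 for CCT-1, but the gene structures differ. cct-2 and cct-4, with 4 and 5 exons, occupy 2075 and 2045 bp, while cct-3 and cct-5, with 8 exons each, occupy 10000 and 8927 bp. The annotated 3′UTRs were 961 bp long in cct-3 and 704 bp in cct-8, against 215 to 332 bp in the other 6 genes. No gene of either strand overlapped the last 500 bp of the transcript in 6 of the 8 genes. The end of cct-1 is overlapped on the other strand by 117 bp of T05C12.8, and the end of cct-7 by 28 bp of zig-11. The strand setting of the authors' counting is not given in the sources used here. Both overlapping genes had few counts, at most 1 for T05C12.8 and 5 for zig-11 in any library.

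Of the 8 subunits, 7 had many UMI counts and 1 had few. By its mean over the 4 libraries, cct-1 was the most abundant, at 300 CPM. It was followed by cct-5 at 236 CPM, cct-4 at 236 CPM, cct-2 at 207 CPM, cct-3 at 150.0 CPM, cct-6 at 145 CPM and cct-7 at 130.0 CPM. These 7 genes ranked between percentiles 90.9 and 96.3 of all detected genes. cct-8 was at 14.0 CPM, at percentile 53.9. A QuantSeq library gives 1 tag per transcript end, so that levels were not divided by length. Per kilobase of coding sequence the levels ran from 182 CPM per kb for cct-1 to 8.53 CPM per kb for cct-8, and the same order held except that cct-4 (146 CPM per kb) and cct-5 (145 CPM per kb) changed places.

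**Figure D1:**
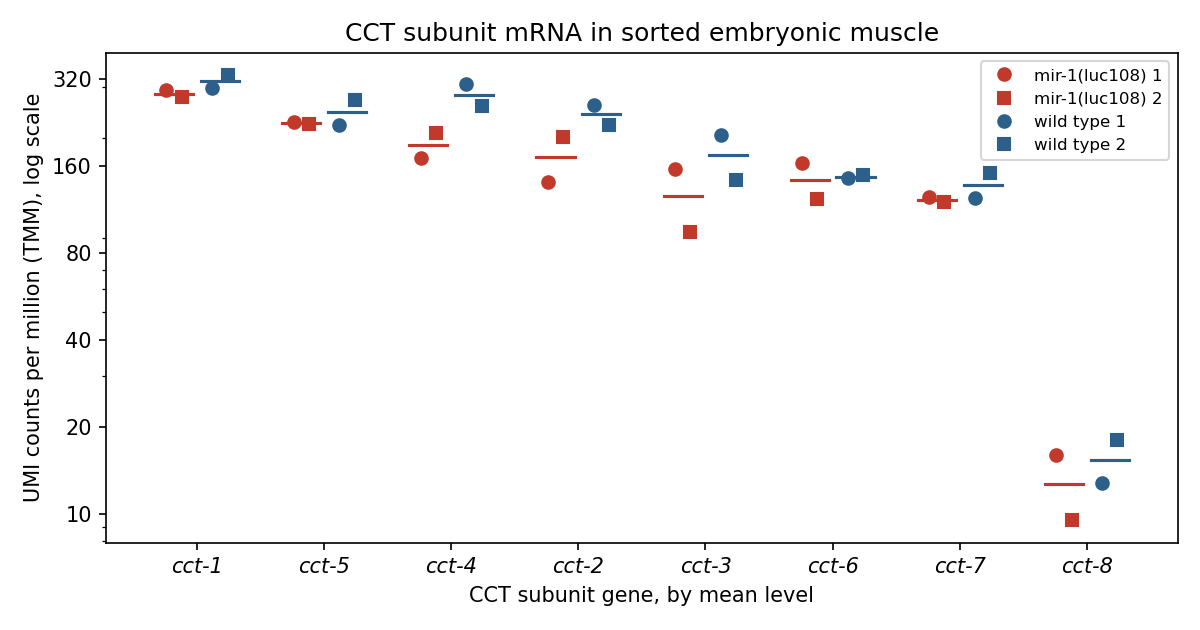
Level in CPM (TMM, log scale) of the 8 CCT genes, ordered by mean level, in the mir-1(luc108) libraries (red) and the wild-type libraries (blue); circles are replicate 1, squares replicate 2, and lines the genotype means (n = 2). cct-1 to cct-7 lie between 94.7 and 330 CPM, and cct-8 lies between 9.47 and 17.9 CPM in every library.

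The order was clear at its lower end alone. cct-1 was above cct-5 in all 4 libraries, and the ranges of these genes did not overlap, but in the first wild-type library cct-4, at 307 CPM, was above cct-1, at 299 CPM. cct-5 and cct-4 had the same mean, and from cct-5 down to cct-7 the range of each gene over the 4 libraries overlapped that of its neighbor. cct-3 and cct-6 were in the order of their means in 1 of the 4 libraries. The step from cct-7 to cct-8 was the widest, with 9.26 times the mean CPM for cct-7. Summed over the libraries, cct-7 had 181 UMI counts and cct-8 had 20, a ratio of 9.05 (exact 95% interval 5.69 to 15.2, for counting error only). By contrast, cct-1 had 2.30 times the counts of cct-7. Counts depend on where the authors' annotation places the 3′ end of a gene, whose part in the level of cct-8 was not tested, so that the count may not measure the expression of cct-8.

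The make-up of the CCT counts varied more for some subunits than for others. cct-1 took 22.7 and 22.1% of the summed CCT counts in the mir-1(luc108) libraries and 19.0 and 21.4% in the wild-type libraries. cct-8 took 1.23 and 0.752% in mir-1(luc108) and 0.813 and 1.16% in wild type. In percentage points, the widest ranges were those of cct-4, cct-2 and cct-3. cct-3 took 12.1 and 7.52% in mir-1(luc108) and 13.0 and 9.29% in wild type. The share of cct-2 was 10.9 and 16.0% in mir-1(luc108) and 16.5 and 14.4% in wild type. That of cct-4 was 13.2 and 16.5% in mir-1(luc108) and 19.5 and 16.8% in wild type.

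**Figure D2:**
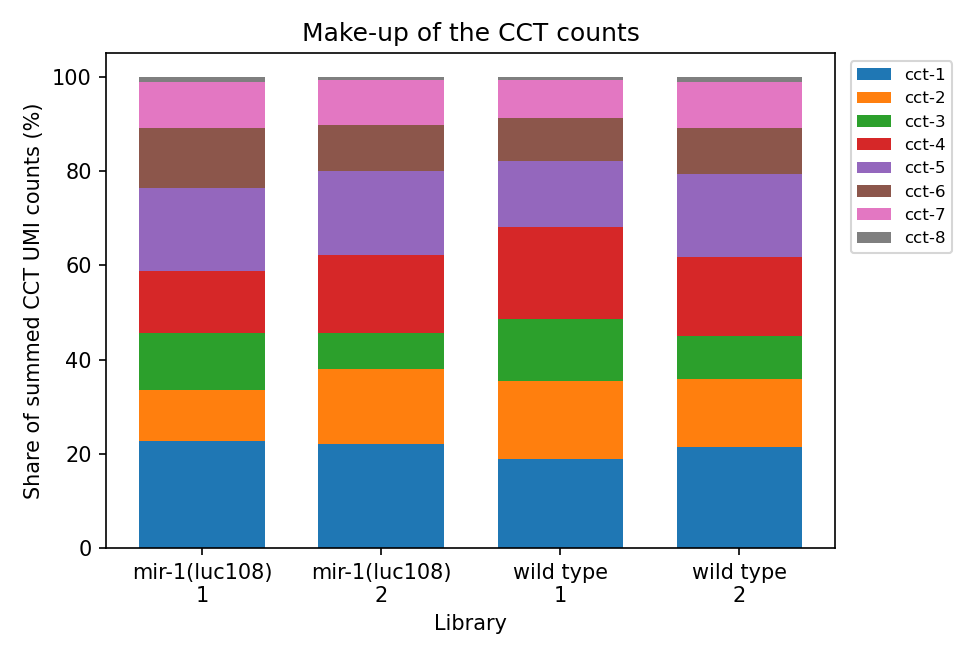
Share of the summed CCT UMI counts (%) taken by each subunit gene in each library, with the mir-1(luc108) libraries on the left and the wild-type libraries on the right. cct-1 takes 19.0 to 22.7% and cct-8 0.752 to 1.23% of the sum in every library.

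The libraries were then compared between genotypes, to ask whether the absence of miR-1 was accompanied by another level of the folding machinery. The fit used edgeR's quasi-likelihood test on all 5111 genes that passed its filter on low counts, and a log2 fold change is mir-1(luc108) over wild type. At a false discovery rate of 0.05, 0 of the 7 tested CCT genes differed, against 0.0587% of all genes tested. An unadjusted p below 0.05 was found for 1 of them, cct-4, on the lower side, where 4.58% of all genes were lower in mir-1(luc108) by that criterion. DESeq2 called 0 of the 8 genes, and 0 had an unadjusted p below 0.05 there. All 7 fitted log2 fold changes were negative, with a median of −0.18, while 49.7% of all genes tested were negative and the median over all genes was 0.0030. For 3 of the 7 genes, cct-1, cct-2 and cct-4, both mir-1(luc108) libraries lay below both wild-type libraries, as they did for 18.9% of all genes tested. For 0 of the 7 both lay above, against 19.5% of all genes. Leaving out the second wild-type library brought the median of the 7 genes to −0.069. It was −0.26 when the first library of either genotype was left out and −0.14 when the second mutant library was.

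cct-4 encodes the delta subunit and showed the largest fitted difference among the members. It had 170 and 208 CPM in the mir-1(luc108) libraries (75 and 66 UMI counts), against 307 and 259 CPM in the wild-type libraries (72 and 101 UMI counts). The genotypes did not overlap. The means were 189 ± 26.8 CPM in mir-1(luc108) and 283 ± 34.4 CPM in wild type (SD, n = 2 each). The log2 fold change was −0.58 (standard error 0.23, 95% interval −1.05 to −0.10), a ratio of 0.670, with an unadjusted p of 0.0196 and an adjusted p of 0.494 from edgeR. The estimate stayed negative under every alternative tried, between −0.72 and −0.44 in the fits on 3 libraries, but its adjusted p was never below 0.217.

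cct-2, which encodes the beta subunit, had the next difference in size. It had 141 and 202 CPM in mir-1(luc108) (62 and 64 UMI counts), against 260 and 223 CPM in wild type (61 and 87 UMI counts). Both mutant libraries were thus below both wild-type libraries, but the mutant replicates stood further apart from each other than the nearest libraries of the genotypes did. The log2 fold change was −0.50 (standard error 0.24, 95% interval −1.01 to 0.0039, adjusted p = 0.613 from edgeR). It was −0.26 when the first mutant library, in which cct-2 was lowest, was left out.

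cct-1, for the alpha subunit, was the third gene whose genotypes did not overlap, by a narrow margin. It had 293 and 278 CPM in mir-1(luc108) (129 and 88 UMI counts), against 299 and 330 CPM in wild type (70 and 129 UMI counts). The higher mutant library and the lower wild-type library were nearly level. The log2 fold change was −0.14 (standard error 0.21, 95% interval −0.58 to 0.30, adjusted p = 0.936 from edgeR).

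cct-3, for the gamma subunit, varied most between replicates. It had 157 and 94.7 CPM in mir-1(luc108) (69 and 30 UMI counts), against 205 and 143 CPM in wild type (48 and 56 UMI counts). The groups overlapped, since the higher mutant library exceeded the lower wild-type library. The log2 fold change was −0.41 (standard error 0.28, 95% interval −1.01 to 0.19, adjusted p = 0.784 from edgeR). It was −0.12 when the second mutant library was left out and −0.86 when the first was.

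The remaining subunits with enough counts overlapped between genotypes. cct-5, for the epsilon subunit, had 227 and 224 CPM in mir-1(luc108) (100 and 71 UMI counts), against 222 and 271 CPM in wild type (52 and 106 UMI counts). Both mutant libraries lay between the wild-type libraries, and the 95% interval of the log2 fold change, −0.60 to 0.32, held 0. cct-6, for the zeta subunit, had 164 and 123 CPM in mir-1(luc108) (72 and 39 UMI counts), against 145 and 149 CPM in wild type (34 and 58 UMI counts). Here the mutant libraries lay on either side of the wild-type pair, and the log2 fold change of −0.022 (95% interval −0.56 to 0.52) took the other sign in some settings. cct-7, for the eta subunit, had 125 and 120.0 CPM in mir-1(luc108) (55 and 38 UMI counts), against 124 and 151 CPM in wild type (29 and 59 UMI counts). The second wild-type library alone was high for cct-7, and the 95% interval ran from −0.73 to 0.37. A p that misses the threshold does not show that these levels were alike in both genotypes.

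cct-8, for the theta subunit, did not pass the filter on low counts. It had 15.9 and 9.47 CPM in mir-1(luc108) (7 and 3 UMI counts), against 12.8 and 17.9 CPM in wild type (3 and 7 UMI counts). The counts were thus 10 in each genotype, with overlapping libraries. The ratio of mir-1(luc108) to wild type was 0.825, with an exact 95% interval from 0.308 to 2.21 that covers counting error only, and so leaves the direction unknown.

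**Figure D3:**
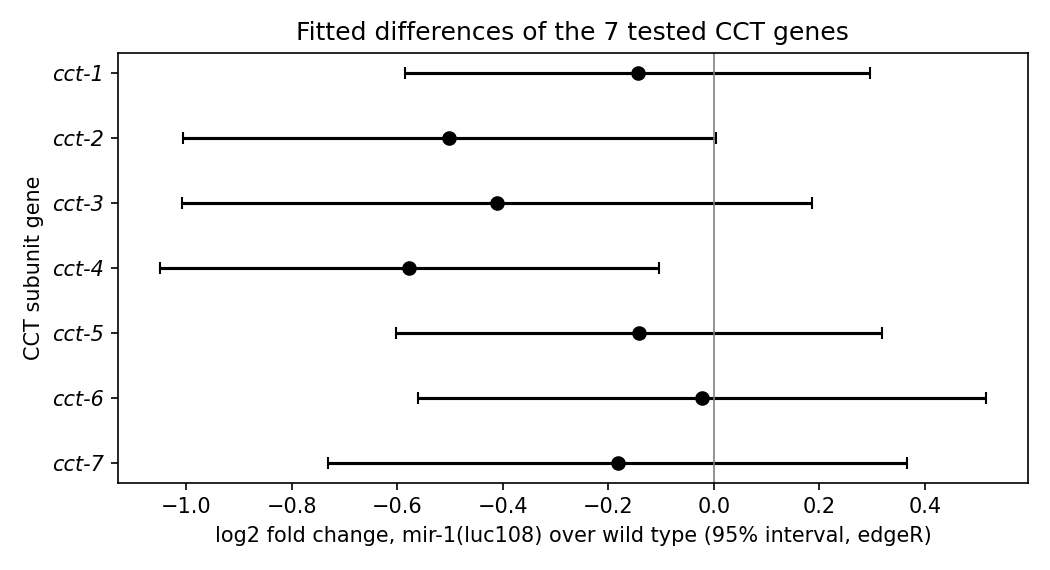
Log2 fold change, mir-1(luc108) over wild type, of the 7 tested CCT genes, with 95% intervals from edgeR's quasi-likelihood fit over all genes. Every point is below 0, and the interval of cct-4, from −1.05 to −0.10, is the one that does not hold 0.

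Although no single gene passed the adjusted threshold, the summed level of the 8 genes was lower in both mutant libraries than in both wild-type libraries. The 8 genes together had 1293 and 1260 CPM in the mir-1(luc108) libraries (569 and 399 UMI counts), against 1575 and 1544 CPM in the wild-type libraries (369 and 603 UMI counts). The genotypes did not overlap. The exact 95% intervals of the sums were 1189 to 1404 and 1139 to 1389 CPM in mir-1(luc108), against 1419 to 1745 and 1424 to 1673 CPM in wild type. These intervals cover counting error only, and over all genes the replicates differed by more than that, with a chi-square per degree of freedom of 2.13 between the mir-1(luc108) libraries and 1.99 between the wild-type libraries. The means were 1276 ± 23.5 CPM in mir-1(luc108) and 1560 ± 21.8 CPM in wild type (SD, n = 2 each), a ratio of 0.818. Within each genotype, the sum of each library lay inside the counting interval of the other. These SDs are thus no larger than counting error allows, and do not measure the spread between libraries. Between the mutant libraries, cct-2 (141 and 202 CPM) and cct-3 (157 and 94.7 CPM) differed in opposite directions, which partly offset each other in the sum. With 2 libraries per genotype an exact permutation test cannot give a two-sided p below 0.333, and none is given for this sum. Leaving out any 1 library gave ratios of 0.808 to 0.829. As shares of all UMI counts, without TMM factors, the CCT genes took 0.126 and 0.116% of the mir-1(luc108) libraries and 0.150 and 0.142% of the wild-type libraries. Without cct-2 and cct-4, a choice made after their values were seen, the sums were 982 and 849 CPM in mir-1(luc108) and 1008 and 1063 CPM in wild type, a ratio of 0.884 of their means.

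The summed level of muscle genes was lower in both mutant libraries too. For 18.9% of all genes tested, both mir-1(luc108) libraries lay below both wild-type libraries. All 12 body-wall muscle markers had a negative log2 fold change, with a median of −0.56, but 0 of them passed the adjusted threshold, and their sum was 0.724 of wild type in mir-1(luc108). In bulk libraries fewer muscle cells and less muscle mRNA per cell cannot be told apart, and the part of either in the level of the CCT genes was not tested. Relative to the muscle marker sum, the CCT sum was 7.23 and 7.82% in mir-1(luc108) and 6.48 and 6.83% in wild type, higher in both mutant libraries. All 5 tested neuronal markers had a positive log2 fold change, with a median of 0.17, and 0 of them passed the adjusted threshold. Of all genes tested, 49.7% were negative. The neuronal genes rab-3 and ric-4, which did not pass the filter on low counts, had lower means in mir-1(luc108). These were 12.2 and 21.7 CPM, against 20.5 and 23.5 CPM in wild type, with overlapping libraries.

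**Figure D4:**
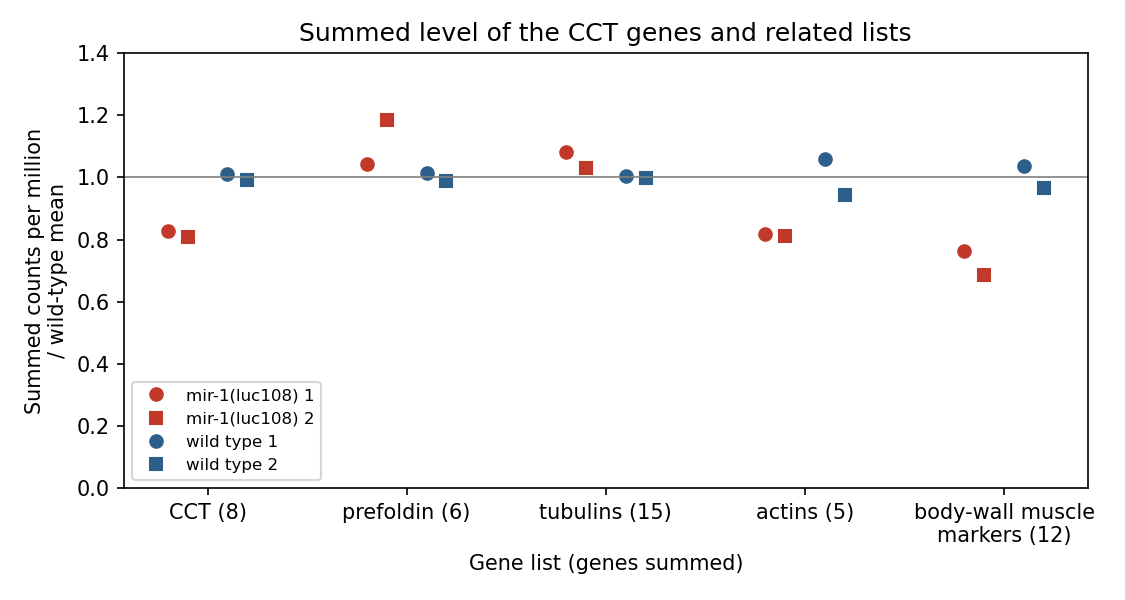
Summed CPM of the CCT genes, prefoldin, tubulins, actins and body-wall muscle markers in each library, divided by the wild-type mean of the same list; red is mir-1(luc108), blue wild type, circles replicate 1 and squares replicate 2. The mir-1(luc108) libraries lie at 0.829 and 0.808 for the CCT genes, 1.04 and 1.18 for prefoldin, 0.818 and 0.812 for the actins and 0.762 and 0.687 for the muscle markers.

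Actin is the client that muscle makes most of, and the summed actin level, most of it from act-4, was 0.815 of wild type in mir-1(luc108). Of the 5 actin genes tested, 0 passed the adjusted threshold, and 4 of them, act-1 to act-4, had both mir-1(luc108) libraries below both wild-type libraries, as did 18.9% of all genes tested. The median log2 fold change of the list was −0.29. act-4, the most abundant, had 4051 and 3921 CPM in mir-1(luc108), against 5473 and 4259 CPM in wild type (log2 fold change −0.29, 95% interval −0.73 to 0.16, adjusted p = 0.804 from edgeR). act-1 had 1025 and 998 CPM in mir-1(luc108), against 1131 and 1550 CPM in wild type. These genes are near-identical in their coding sequences, and how the 3′-end reads were divided among them was not checked. The fifth, act-5, is the actin of the intestine and excretory cell, and parted upward, as did 19.5% of all genes tested, with 63.6 and 82.1 CPM in mir-1(luc108), against 21.3 and 56.3 CPM in wild type. The summed CCT level was 20.8 and 20.4% of the summed actin level in mir-1(luc108) and 19.6 and 21.5% in wild type, so that this proportion overlapped between genotypes.

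Tubulin is the other main client, and its genes did not share that direction. Of 16 listed genes, 15 were found in the table and 9 were tested, with 0 past the adjusted threshold, 6 positive and 3 negative. Their median log2 fold change was 0.11, and −0.041 when the second wild-type library was left out. The alpha-tubulin tba-1 had 582 and 492 CPM in mir-1(luc108), against 482 and 499 CPM in wild type. The beta-tubulin tbb-2 had 264 and 287 CPM in mir-1(luc108), against 282 and 254 CPM in wild type. Both overlapped between genotypes. tbg-1, which encodes the gamma-tubulin of centrosomes, had 24.99 and 22.1 CPM in mir-1(luc108), against 38.4 and 43.5 CPM in wild type (log2 fold change −0.80, 95% interval −1.75 to 0.16, adjusted p = 0.722 from edgeR). mec-7, a beta-tubulin of touch receptor neurons, had 81.8 and 47.4 CPM in mir-1(luc108), against 34.2 and 41.0 CPM in wild type. This was the direction of the tested neuronal markers, whose part in it was not tested. tbb-4, a beta-tubulin of ciliated neurons, also parted upward, at 61.3 and 75.8 CPM in mir-1(luc108), against 55.5 and 51.2 CPM in wild type. Of the 9 tested tubulins, 2 thus parted upward and 1 downward, as did 19.5% and 18.9% of all genes tested. The summed CCT level was 83.9 and 85.8% of the summed tubulin level in mir-1(luc108), against 110 and 109% in wild type. This proportion did not overlap between genotypes, and the difference was not tested.

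Prefoldin is a separate complex that binds nascent actin and tubulin and hands them to CCT. All 6 of its subunit genes, pfd-1 to pfd-6, were tested, with 0 past the adjusted threshold, 4 positive and 2 negative, and a median log2 fold change of 0.11. pfd-1, the most abundant, had 566 and 685 CPM in mir-1(luc108), against 589 and 594 CPM in wild type, which overlapped. pfd-5 had 209 and 215 CPM in mir-1(luc108), against 111 and 151 CPM in wild type. Both mutant libraries were above both wild-type libraries for pfd-5, with a log2 fold change of 0.66 (95% interval 0.15 to 1.17, unadjusted p = 0.0144, adjusted p = 0.453 from edgeR). pfd-6 also parted upward, at 56.8 and 44.2 CPM in mir-1(luc108), against 34.2 and 33.3 CPM in wild type. By contrast pfd-3 parted downward, at 54.5 and 50.5 CPM in mir-1(luc108), against 64.0 and 71.7 CPM in wild type. Of all 5111 genes tested, 19.5% parted upward and 18.9% downward. An unadjusted edgeR p below 0.05 on the higher side was found for 185 of them. The median of the list moved with single libraries, to 0.26 when the first mutant library was left out and to −0.027 when the second was. The summed CCT level was 1.07 and 0.921 times that of prefoldin in mir-1(luc108) and 1.35 and 1.36 times in wild type, without overlap and without a test.

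Other helpers and clients of the ring ranged widely in abundance. Of 7 tubulin cofactors, which act on tubulin after its release from CCT, 2 passed the filter, with log2 fold changes of 0.73 for tbca-1 and 0.44 for tbcb-1. tbca-1 had 72.7 and 126 CPM in mir-1(luc108), against 68.3 and 51.2 CPM in wild type, and its adjusted p was 0.614 from edgeR. The median of these 2 genes was 0.59, while over all 7 cofactors, fitted without the filter on low counts, it was 0.20. Among the 5 with fewer counts, tbcd-1 parted downward, at 20.4 and 22.1 CPM in mir-1(luc108), against 42.7 and 25.6 CPM in wild type, as did tbce-1, at 9.09 and 3.16 CPM in mir-1(luc108), against 17.1 and 20.5 CPM in wild type. tbcc-1 parted upward on 12 and 4 UMI counts in mir-1(luc108), against 0 and 4 in wild type. tbcd-1, tbce-1 and tbcc-1 did not pass the filter, and the share of such low-count genes that part by genotype was not counted. No direction of the cofactors as a set is read from them. The 2 phosducin-like genes, whose relatives in other organisms assist CCT, both overlapped between genotypes, with pdl-1 at 47.7 and 41.0 CPM in mir-1(luc108) and 55.5 and 46.1 CPM in wild type, and txdc-9 at 50.0 and 22.1 CPM in mir-1(luc108) and 55.5 and 28.2 CPM in wild type. Among WD40 proteins that CCT is known to fold in yeast or mammals, 4 genes were tested and 0 passed, with a median log2 fold change of 0.027. The G protein beta subunit gene gpb-1 had 341 and 259 CPM in mir-1(luc108), against 320 and 300 CPM in wild type, and overlapped. Of the 4, fzy-1, an activator of the anaphase-promoting complex, parted upward, as did 19.5% of all genes tested. It had 27.3 and 28.4 CPM in mir-1(luc108), against 21.3 and 23.1 CPM in wild type.

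The pattern of the CCT genes over the 4 libraries was also compared with that of other genes. Likeness was measured as the Euclidean distance between log2 CPM profiles, each centred on its own mean, and the mean profile of the 7 tested members was −0.12 and −0.18 in the mir-1(luc108) libraries and 0.17 and 0.13 in the wild-type libraries. Among 5104 tested genes at or above the level of cct-8, the closest over these 4 libraries were paa-1, idi-1, epc-1, unc-38 and pab-2, at distances of 0.039 to 0.066, against a median of 0.616. paa-1, for the scaffold subunit of protein phosphatase 2A, had 273 and 268 CPM in mir-1(luc108), against 342 and 333 CPM in wild type. The CCT genes themselves were further from their own mean, from 0.20 for cct-1 to 0.60 for cct-3. The 5 genes are the smallest of 5104 distances, so that their closeness is a matter of selection.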

How the data were processed

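QuantSeq 3′ libraries from sorted body-wall muscle cells were analysed, 2 from mir-1(luc108) and 2 from wild-type embryos, and the labels gave the genotypes. The authors deposited unnormalized UMI counts for each gene. To make them they used, by their methods, UMI-tools for UMI extraction and removal of duplicates, adaptor trimming, STAR for mapping to WBcel235 and HTSeq for counting. Versions, annotation release and strand setting are not given in the sources used here. Reads are credited to genes by their 3′ ends, so that missed or shared ends lower a gene's count.

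Genes kept by filterByExpr (minimum count 10) were tested with edgeR 4.0.16 in R 4.3.3, by its quasi-likelihood test with TMM factors, genotype as the only term, and Benjamini-Hochberg adjustment over 5111 genes at a threshold of 0.05. CPM values refer to the total of these genes times the TMM factor. Standard errors and 95% intervals come from the F statistic and its degrees of freedom. The fit was tested on simulated counts, in which genes drawn at random from all those tested were changed. Changes near the largest fitted for a CCT gene were not recovered there. The drawn genes were not matched to the CCT genes in level, so that no detection rate for the CCT genes follows from it. A lack of calls does not show equal levels. A count of 0.5 was added for the log2 profiles only. Coordinates and coding lengths come from Ensembl 115, in which all 8 genes were matched by symbol.

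The members, the related lists and the tests were chosen with earlier results of these data known. Named genes are the 8 members, the most abundant genes of each list, and those whose libraries part by genotype. Alternatives were other scaling, other filters, a replicate block, leaving out each library, and DESeq2 1.42.0 in 2 forms, with its fold change prior and without. Sequences were not analysed here. The labels do not say whether libraries with the same number shared a day or culture, and the check given with the replicate block cannot decide it.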

Additional observations from a re-analysis of the deposited data

How the results depend on the processing

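Under all 12 alternatives tried, 0 CCT genes passed the adjusted threshold. The median log2 fold change of the tested CCT genes was −0.18 and lay between −0.26 and −0.069 in the fits on 3 libraries. The estimates of cct-1, cct-2, cct-3, cct-4 and cct-7 stayed negative in every alternative. That of cct-5 was 0.019 without the second wild-type library (adjusted p = 0.988, edgeR). That of cct-6 was 0.0054 with library totals alone, 0.00096 without a filter on low counts and 0.15 when the second mutant library was left out, with adjusted p-values of 0.998, 0.999 and 0.997 from edgeR, and in the fits on 3 libraries it ranged from −0.27 to 0.15. cct-8 could be fitted in 4 alternatives, with log2 fold changes from −0.28 to −0.056. The count of all genes past the threshold was 3, and became 5 with RLE or upper-quartile factors, 63 without a filter, 50 with at least 4 counts in some library and 0 with DESeq2 with or without its prior. Leaving out 1 library gave 0 to 66 genes, namely 66 for the first wild-type library, 15 for the second mutant library and 0 for either of the others. The cause of these shifts was not tested.

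With replicate number as a block, 87 genes passed and 0 of them were CCT genes, the lowest adjusted p being 0.217 for cct-4. By their labels, these libraries share only a number. Deviations of same-numbered libraries from their genotype means correlated at −0.0027 over genes, a value that cannot show whether they shared a day or batch. Scaled to library totals, the summed CCT level was 1255 and 1162 CPM in mir-1(luc108) and 1504 and 1419 CPM in wild type. The ratio of the summed level was 0.818, 0.808 to 0.829 in the sets of 3 libraries and 0.884 without cct-2 and cct-4, both settings chosen after seeing the data. The order of levels per length used coding lengths from Ensembl in place of a protein table. Where 1 library of a genotype was left, it was assumed to vary like the other group. Counts of 20 for cct-8 limit what can be said of it.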

Other observations

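In yeast and mammals the subunits of a CCT ring sit in a fixed order, in which the counterparts of CCT-5, CCT-2, CCT-4 and CCT-1 follow one another, as do those of CCT-3, CCT-6, CCT-8 and CCT-7. In these libraries the 4 genes of the first arc were the 4 most abundant by mean level, a pattern noticed after the values were seen and not tested. In both wild-type libraries and the second mir-1(luc108) library, every gene of the first arc was above every gene of the second. The lowest of the first arc was at 202 CPM in the second mir-1(luc108) library, against 123 CPM for the highest of the second arc. In the wild-type libraries these values were 222 and 223 CPM for the lowest of the first arc and 205 and 151 CPM for the highest of the second. In the first mir-1(luc108) library the arcs overlapped, since cct-2 was at 141 CPM and cct-6 at 164 CPM. The first arc took 64.3 and 72.4% of the CCT counts in mir-1(luc108) and 69.1 and 70.2% in wild type.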
